A study of Mus musculus with 3 samples.

Results

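The genes described here are 10 that carry out inflammatory cell death: the inflammasome and pyroptosis genes Nlrp3, Nlrc4, Aim2, Pycard, Casp1, Casp4 and Gsdmd, and the necroptosis genes Zbp1, Ripk3 and Mlkl. They were chosen by name, and all 10 were found among the 53342 Ensembl genes of the count table through the symbols of GENCODE release M21. Bulk RNA was sequenced from lung tissue of 3 male C57Bl/6 mice, called mouse 4, mouse 5 and mouse 6 after the last digit of each label. Every animal had been given microparticles made from Mycobacterium abscessus (MAB) into the trachea, in 50 µL and at an amount equal to 1000000 bacteria, to bring on granulomas, and then 5 µg of MIA-602 under the skin each day for 3 weeks. MIA-602 blocks the receptor for growth hormone-releasing hormone. The labels give no age. All 3 lungs share this one treatment, and no unexposed or undrugged lungs were analysed here. The values therefore describe levels and spread within 1 group and show no effect of either agent.

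An inflammasome is a protein platform that a cytosolic sensor builds when it meets a microbial product or a sign of damage. NLRP3 responds to membrane and ion disturbance, NLRC4 to bacterial flagellin and secretion-system proteins handed on by NAIP proteins, and AIM2 to double-stranded DNA in the cytosol. ASC, the protein of Pycard, links sensors to caspase-1, which matures interleukin-1β and interleukin-18 and cuts gasdermin D into a pore-forming fragment. Caspase-11, the product of mouse Casp4, binds lipopolysaccharide and cuts gasdermin D directly. In necroptosis, ZBP1, a sensor of Z-form nucleic acids, or the death receptor kinase RIPK1 engages RIPK3, which phosphorylates MLKL, and MLKL then breaks the plasma membrane. Macrophages are known for high inflammasome activity, and many of these genes are induced by interferons.

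Sequencing gave 43845715 counts in mouse 4, 35674761 in mouse 5 and 31579465 in mouse 6, so that the 10 genes were read from 259 to 6868 counts per library. The labelled tissue was borne out by its defining markers, since all 6 alveolar type 2 genes examined were detected and summed to 21241, 28700 and 25822 CPM. Values are given in this order of mice throughout. CPM are counts per 1000000, scaled for composition with TMM (trimmed mean of M-values) factors, and levels of different genes are compared only as CPM per kilobase of merged exon. Mouse 4 stood apart in other tissue markers, with 8 of 8 skeletal muscle and 6 of 6 squamous epithelium genes highest there. Their sums were 5043, 1862 and 1609 CPM for muscle and 381, 143 and 123 CPM for squamous epithelium. The club cell sum was lowest there, at 8953 CPM against 24443 and 21641. Mouse 5 stood apart as well, with 5 of 5 erythroid genes highest there (sums of 1468, 3199 and 1811 CPM) and 5 of 6 cardiac muscle genes lowest (294, 141 and 290 CPM).

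All 10 genes were expressed in all 3 lungs. Each reached 1 CPM in every mouse, as 28.5% of all genes in the table did, and 9 of the 10 reached 10 CPM in every mouse. Gasdermin D and ZBP1 stood highest per length and the sensors NLRP3 and NLRC4 lowest, with the adaptor, the caspases, AIM2, MLKL and RIPK3 between them. The median of the 10 was 12.9 CPM per kilobase, against 6.20 over the 13849 protein-coding genes that reached 1 CPM in every mouse, and 8 of the 10 lay above the latter value. This describes the list and was not tested.

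**Figure D1:**
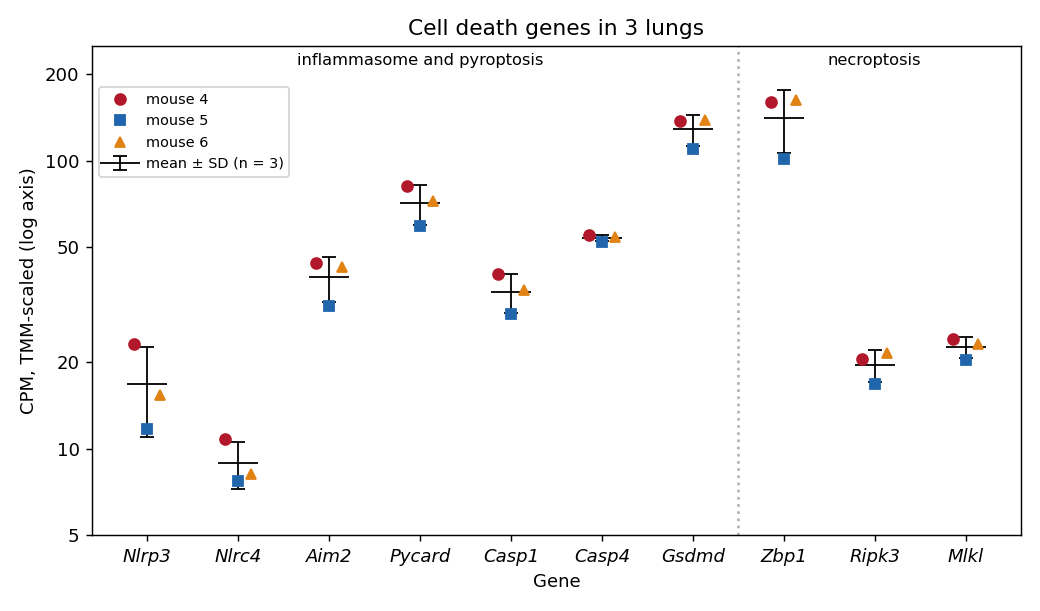
CPM (TMM-scaled, log axis) of each gene in mouse 4, mouse 5 and mouse 6, with the mean and SD over the 3 mice as a black bar. Mouse 5 is the lowest of the 3 points for every gene, and the points of Casp4 nearly coincide at 52.3 to 55.2 CPM.

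Among the sensors, Aim2 was the most abundant of the 3 and Nlrc4 the least. Aim2 (ENSMUSG00000037860, chromosome 1, 173350879 to 173466040, mm10) stood at 44.01, 31.2 and 42.7 CPM, so that mice 4 and 6 lay close together and mouse 5 apart. Nlrp3 (ENSMUSG00000032691, chromosome 11, 59541568 to 59566956) stood at 23.0, 11.7 and 15.4 CPM, high in mouse 4 and lowest in mouse 5. Nlrc4 (ENSMUSG00000039193, chromosome 17, 74425438 to 74459142) stood at 10.8, 7.72 and 8.17 CPM, again with mouse 4 highest and here with mice 5 and 6 close together. Per kilobase of exon the means were 11.2 ± 2.02 for Aim2, 4.12 ± 1.42 for Nlrp3 and 1.85 ± 0.349 for Nlrc4 (SD, n = 3). Of the detected protein-coding genes, 67.6% lay below Aim2, 37.7% below Nlrp3 and 19.2% below Nlrc4.

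Pycard, the gene of the adaptor ASC, exceeded each of these sensors per length in every lung. Pycard (ENSMUSG00000030793, chromosome 7, 127989708 to 127993867) stood at 81.3, 59.0 and 72.6 CPM, or 18.7 ± 2.95 CPM per kilobase. On the log2 scale of length-scaled levels, Nlrp3 lay at −2.22 ± 0.27 from Pycard, Nlrc4 at −3.34 ± 0.13 and Aim2 at −0.74 ± 0.08 (SD, n = 3, below Pycard in 3 of 3 mice each). The ratio of Aim2 to Pycard moved little between lungs, at 0.588, 0.573 and 0.639, whereas that of Nlrp3 to Pycard was 0.265 in mouse 4 against 0.186 and 0.198. Over merged exons, an exact two-sided sign-flip permutation test gave p = 0.25 for every ratio between members, 9 fixed pairs and 9 neighbours in the order of levels. This is the smallest value that 3 mice allow, so no ratio could pass. Pycard shares exon sequence with Gm45205, a gene model on the opposite strand that GENCODE lists as still to be tested by experiment and that held 15, 16 and 11 counts, and none of the other 9 genes overlapped another gene's exons.

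The inflammatory caspases Casp1 and Casp4 lie side by side on chromosome 9, 1562 bases apart on the same strand, and differed in how far they varied between lungs. Casp1 (ENSMUSG00000025888, 5298517 to 5307265) stood at 40.2, 29.3 and 35.4 CPM, with each mouse distinct. Casp4 (ENSMUSG00000033538, 5308828 to 5336783) stood at 55.2, 52.3 and 54.1 CPM, nearly level across the 3 lungs. The coefficient of variation over mice was 15.6% for Casp1 and 2.66% for Casp4, where counting alone would give about 2.82% and 2.25%. Casp4 thus varied by about as much as its counts allow, and a test of the difference in spread between the 2 genes was not made. Casp1 kept a nearly constant ratio per length to Pycard, whose protein recruits it, at 1.26, 1.26 and 1.24.

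Which caspase gene was higher depended on the measure of length. Over merged exons, Casp1 exceeded Casp4 in 3 of 3 mice, by 0.68 ± 0.19 in log2 of length-scaled levels (SD, n = 3), with 23.4 ± 3.65 against 14.5 ± 0.386 CPM per kilobase. The merged exons of Casp4 span 3710 bases but its longest annotated transcript 1901, while both are 1497 for Casp1. With the longest transcript as length the difference turned to −0.29 and with the mean coding transcript to −1.37, so that Casp1 was the higher of the 2 over merged exons alone.

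Sequence before the start sites is shown for these neighbours and for Nlrp3, because both start sites of Casp4 and 1 of 2 of Nlrp3 were the promoters of this list with a match to the NF-kB consensus, a motif of the factor that primes inflammasome genes. The stretches, of the upstream start site where there are 2, run from base −200 to base −31 before the RefSeq start, 5′ to 3′ on the gene's strand, in build GRCm38.p6, and capitals mark the match. Casp4 is chr9:5308649-5308818 on the plus strand, Casp1 chr9:5298317-5298486 on the plus strand and Nlrp3 chr11:59541369-59541538 on the plus strand.
Casp4: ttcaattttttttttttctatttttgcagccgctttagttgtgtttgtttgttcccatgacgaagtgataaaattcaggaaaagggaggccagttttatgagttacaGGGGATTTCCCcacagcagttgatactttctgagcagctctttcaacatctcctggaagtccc
Casp1: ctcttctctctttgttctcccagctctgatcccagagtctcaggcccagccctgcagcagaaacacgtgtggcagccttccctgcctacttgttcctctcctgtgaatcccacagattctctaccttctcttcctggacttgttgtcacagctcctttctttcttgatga
Nlrp3: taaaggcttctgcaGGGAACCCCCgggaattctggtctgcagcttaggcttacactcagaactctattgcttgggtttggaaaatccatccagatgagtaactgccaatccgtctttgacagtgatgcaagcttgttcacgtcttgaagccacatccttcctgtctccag

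In Casp4 the consensus matched 3 times in overlapping letters, from base −93 to −84 and from −92 to −83 on the strand shown and from −92 to −83 on the other, which read as 1 place. In Nlrp3 it matched from −186 to −177 on the other strand, and Casp1 had no match in its window. RefSeq promoters of 300 bases (250 before and 50 after the start) were found for 8 of the 10 genes, with 10 start sites, and none for Gsdmd and Zbp1. The NF-kB consensus was searched on both strands and is held by 4.51% of all 32851 promoters in the table. The core of the interferon-stimulated response element, GAAANNGAA, is held by 8.56% and was found in Ripk3 alone among the 8, from base 15 to 23 after the start. The gamma-activated site, TTCNNNGAA, is held by 8.30% and was found in none of the 8. A match is a run of letters and not a measured binding site.

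Gsdmd had the highest level per length of the 10 genes and supplied nearly all gasdermin counts. Gsdmd (ENSMUSG00000022575, chromosome 15, 75862327 to 75867408) stood at 137, 109.8 and 138 CPM, with mice 4 and 6 alike and mouse 5 lower. Its level of 54.0 ± 6.77 CPM per kilobase lay above 93.5% of the detected protein-coding genes. Gsdmd exceeded Casp1, whose protease activates it, by 1.21 ± 0.10 on the log2 scale of length-scaled levels, with ratios of 2.14, 2.36 and 2.46. Of the counts of 7 gasdermin genes, Gsdmd held 98.1%, 98.2% and 98.7%, with 95% Wilson intervals of 97.7 to 98.4%, 97.8 to 98.6% and 98.3 to 99.0%. These intervals cover counting error only. Gsdme, another pore-forming gasdermin, had 62, 50 and 41 counts over exons of 12742 bases, and Gsdma 38, 16 and 11. The near-identical copies Gsdmc, Gsdmc2, Gsdmc3 and Gsdmc4, between which reads may be split, had at most 6 counts each in any library.

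In the necroptosis arm, the sensor gene Zbp1 stood well above the kinase and the pore former in every lung. Zbp1 (ENSMUSG00000027514, chromosome 2, 173206612 to 173218923) stood at 159, 101 and 163 CPM, with mice 4 and 6 alike and mouse 5 far below them. Ripk3 (ENSMUSG00000022221, chromosome 14, 55784995 to 55788865) stood at 20.4, 16.7 and 21.5 CPM, in the same order of mice over a narrower range. Mlkl (ENSMUSG00000012519, chromosome 8, 111311797 to 111338177) stood at 23.9, 20.3 and 23.1 CPM, again with mouse 5 lowest. Per kilobase of exon the means were 40.0 ± 9.83 for Zbp1, 8.53 ± 1.09 for Ripk3 and 9.76 ± 0.824 for Mlkl (SD, n = 3).

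The kinase and its substrate were nearly level with each other. Over merged exons, Ripk3 lay at −0.20 ± 0.09 from Mlkl on the log2 scale of length-scaled levels (below it in 3 of 3 mice), with ratios of 0.857, 0.827 and 0.934. With the mean coding transcript as length the mean was −0.05 (exact sign-flip p = 0.5), and the order did not hold in every mouse. Zbp1 exceeded Ripk3 by 2.20 ± 0.20, and exceeded Pycard by 1.08 ± 0.19. Comparing the 2 pore formers, the pyroptotic Gsdmd exceeded the necroptotic Mlkl by 2.46 ± 0.07, with ratios of 5.54, 5.23 and 5.79, one of the steadier ratios between lungs.

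Over merged exons, from the highest level to the lowest, the order was Gsdmd, Zbp1, Casp1, Pycard, Casp4, Aim2, Mlkl, Ripk3, Nlrp3 and Nlrc4. Each of the 9 neighbouring pairs had this order within all 3 lungs. For 6 of the 9 pairs the ranges over mice did not overlap either, and for 3 they did: Casp1 and Pycard, Aim2 and Mlkl, and Mlkl and Ripk3. Aim2 and Mlkl were closest in mouse 5, where their ratio was 1.01. The middle of this order depended on the measure of length. Casp4 held the fifth place over merged exons and the third with the longest transcript or the mean coding transcript, and Casp1 moved from place 3 to place 4 with the former and place 6 with the latter. Pycard lay below Casp4 with both other lengths, and above Casp1 with the coding transcript, whereas Gsdmd, Zbp1, Mlkl, Ripk3, Nlrp3 and Nlrc4 kept their places under all 3 measures.

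**Figure D2:**
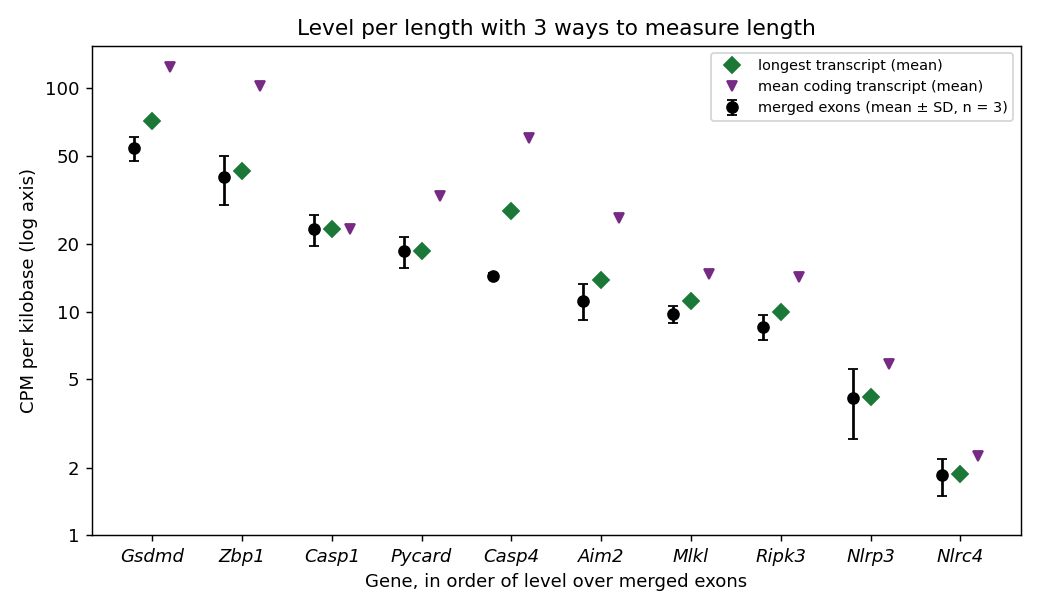
CPM per kilobase (log axis) of each gene, with length taken as merged exons (black, mean ± SD over 3 mice), the longest transcript (green, mean) or the mean coding transcript (purple, mean). Gsdmd and Zbp1 lead and Nlrp3 and Nlrc4 close the order under every measure, and Casp4 rises from 14.5 to 28.3 and 60.0.

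Mouse 5 had the lowest CPM of all 10 genes. The lowest of 3 values fell in mouse 5 for 36.8% of the 17636 genes that passed the expression filter. Between mice 4 and 5 the 10 differences on the log2(CPM + 0.5) scale ran from 0.08 for Casp4 to 0.94 for Nlrp3 with a median of 0.45, against a median of 0.00 over all genes tested. From mouse 5 to mouse 6 the differences were all in the other direction, with a median of −0.31 for mouse 5 relative to mouse 6. Mice 4 and 6 did not part in this way, with 7 genes higher in mouse 4, 3 lower and a median of 0.05. These are differences between single animals of 1 group, the 10 genes are not independent of each other, and with 1 library on each side they carry no replicate check.

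Few of the differences were large. Between mice 4 and 5, 2 of the 10 genes were more than 1.5-fold apart, against 11.0% of all genes tested. These were Nlrp3 at 1.96-fold, with a counting interval of 1.75 to 2.21 (95%, exact binomial), and Zbp1 at 1.58-fold, with 1.52 to 1.64. Between mice 4 and 6 none was past 1.5-fold in log2(CPM + 0.5), where 6.34% of all genes were, and Nlrp3 lay just inside the limit at 1.499-fold. Between mice 5 and 6 it was 1 gene, Zbp1 at 0.621-fold, where 5.68% of all genes were past the limit. The share of the 10 genes past 1.5-fold was thus near that of all genes in each pair.

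No gene passed a test for spread between the 3 mice beyond the trend for its level after adjustment. The edgeR quasi-likelihood fit set each gene's spread against that of genes of similar level, and 0 of the 10 genes had an adjusted p under 0.05, as 0% of the 17636 genes tested did (the smallest adjusted p of any gene was 0.806). At an unadjusted p under 0.05 in edgeR there were 2 of the 10, Nlrp3 and Zbp1 (adjusted p = 0.955 each), against 4.92% of all genes. The edgeR test also passed 0 of the 8 skeletal muscle genes, among them Acta1 at 1936, 687 and 594 CPM (edgeR adjusted p = 0.837). With 3 mice it could thus miss a large spread, and its result does not show that extra spread was absent. DESeq2 marked 102 genes as dispersion outliers and none of the 10. Coefficients of variation ran from 2.66% for Casp4 to 34.5% for Nlrp3 with a median of 15.7%, against 11.2% over all genes tested, and counting error alone would give 1.42 to 5.61% for the 10 genes. For Nlrp3 and Zbp1 the counting part was 4.19% and 1.42%, against 34.5% and 24.6% measured.

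**Figure D3:**
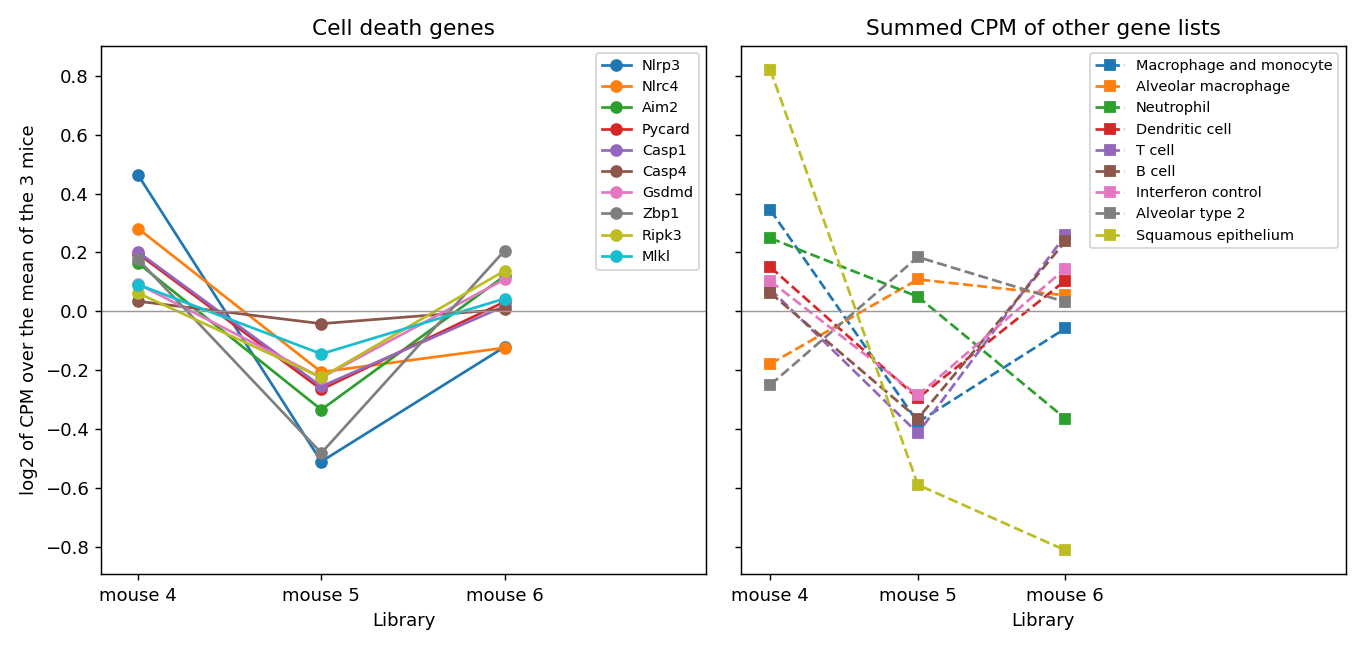
Left, log2 of each gene's CPM over its own mean of the 3 mice, and right, the same for the summed CPM of other gene lists. Lines join values of 1 gene or list and imply no order of the mice. All 10 genes dip in mouse 5, as the macrophage, dendritic, T cell, B cell and interferon lists do, while the alveolar type 2 and alveolar macrophage sums do not.

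Markers of several cell types, immune and other, were also lowest in mouse 5. The 8 macrophage and monocyte genes summed to 2370, 1438 and 1793 CPM, with 7 of 8 lowest in mouse 5 and 8 of 8 highest in mouse 4. The T cell sums were 234, 167 and 265 CPM and the B cell sums 300 (299.5), 223 and 338 CPM, with 5 of 5 genes of each lowest in mouse 5. Dendritic cell genes summed to 435, 319 and 422 CPM with 4 of 5 lowest there. In contrast, alveolar macrophage genes summed to 525, 640.2 and 617 CPM with 1 of 6 lowest in mouse 5, and neutrophil genes to 279, 243 and 183 CPM with 0 of 7, their defining gene Ly6g having 4, 10 and 4 counts. NK cell genes summed to 28.6, 32.6 and 38.1 CPM, with 1 of 4 lowest in mouse 5. Outside the immune lists, the cardiac muscle and fibroblast sums were lowest in mouse 5. The fibroblast sums were 2320, 2071 and 2170 CPM, with 2 of 5 genes lowest there. The alveolar type 1 (2741, 3728 and 2577 CPM), endothelial (1165, 1618 and 1203 CPM) and erythroid sums were highest in mouse 5. The alveolar type 2, club and ciliated sums were highest there too. No marker gene was at 0 in all 3 libraries. The part of these cells in the levels of the 10 genes was not tested, and in bulk tissue fewer cells of a type and less RNA per cell cannot be told apart.

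Which of mice 4 and 6 was the higher differed among the 10 genes, but no gene was higher in mouse 6 beyond counting error. Nlrp3, Nlrc4, Aim2, Pycard, Casp1, Casp4 and Mlkl were highest in mouse 4 with mouse 6 between. The macrophage and monocyte, dendritic cell, fibroblast and cardiac muscle sums all had this order, whereas the T cell and B cell sums were highest in mouse 6. Gene by gene, mouse 4 was highest for 8 of 8 macrophage and monocyte genes and 3 of 5 fibroblast genes. It was highest for only 1 of 5 dendritic cell genes (Itgax) and 1 of 6 cardiac muscle genes (Actc1), so those 2 sums do not speak for most of their genes. Zbp1, Gsdmd and Ripk3 were highest in mouse 6 with mouse 4 at 0.980, 0.989 and 0.949 of that level, and of the interferon control genes Irf1 had this order too (442, 359.9 and 503 CPM), whereas Irf2 (139, 105 and 110.2 CPM) and Irf8 (266, 189 and 259.6 CPM) were highest in mouse 4. With 3 mice no measure of likeness between genes was computed.

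The other genes of these pathways showed which partners were present beside the 10. Among 14 other sensors, 10 reached 1 CPM in every mouse. Highest per kilobase were the AIM2-like genes Mndal (47.6 ± 6.23), Ifi209, listed under its older name Pyhin1 (17.5 ± 2.13), and Ifi204 (11.6 ± 2.52), a family of similar copies whose reads may be shared. The flagellin and secretion-system receptors that feed Nlrc4 were expressed unequally, with Naip2 at 36.6, 21.5 and 27.7 CPM and Naip5 at 31.3, 23.2 and 30.5 CPM. Naip6 stood at 17.0, 12.4 and 13.1 CPM, and Naip1 at 1.02, 0.664 and 0.915 CPM (44, 24 and 29 counts). These names were picked after their values were seen, and the Naip genes are near-identical in part. Nlrp6 had 3, 7 and 1 counts and Nlrp9b 0, 0 and 6.

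All 5 NLRP3 licensing genes were detected, led by Txnip, a thioredoxin-binding protein, at 150.0 ± 16.4 CPM per kilobase, by Nek7, the kinase that bridges NLRP3 subunits, at 14.3 ± 1.67, and by P2rx7, the ATP-gated channel, at 7.35 ± 1.22. Of 10 substrates and other executioners 4 were detected, with Ninj1, which ruptures the membrane of dying cells, at 56.2 ± 14.8, Il1b at 24.1 ± 2.35 and Il18 at 11.5 ± 1.16 CPM per kilobase. All 8 upstream necroptosis genes were detected, led by the tumour necrosis factor receptor gene Tnfrsf1a at 66.6 ± 4.60, Tnf at 22.7 ± 5.39 and Tradd at 16.3 ± 1.19. All 10 brakes were detected, led by Il18bp, which traps interleukin-18, at 27.8 ± 6.64, Casp8, which cuts RIPK1 and RIPK3, at 21.5 ± 1.18 and Birc3, a ubiquitin ligase of RIPK1, at 18.1 ± 1.59.

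**Figure D4:**
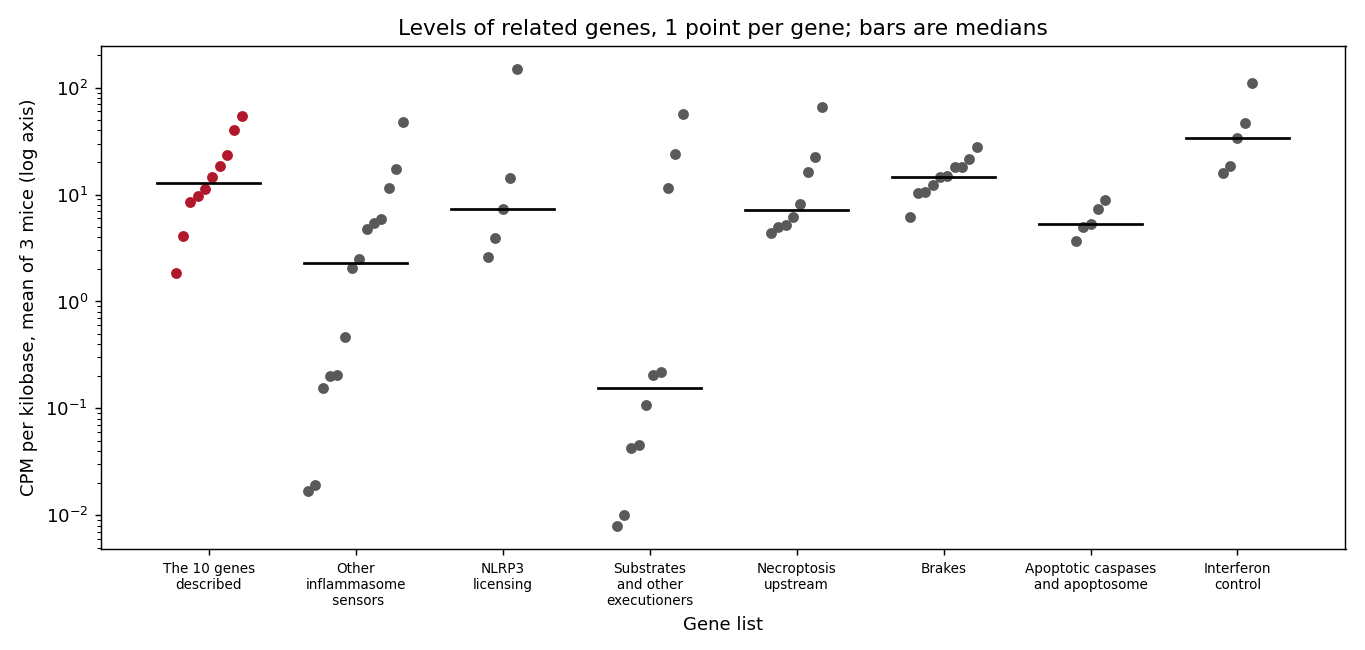
CPM per kilobase (mean of 3 mice, log axis) of the 10 genes (red) and of the members of 7 related lists (grey), 1 point per gene with the list median as a bar. The interferon control list has the highest median, 33.8, and the executioner list spans the widest range because the gasdermins other than Gsdmd lie near 0.

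Apoptotic caspases lay below Casp1 and Casp4 per length of merged exon, with all 5 genes detected and a list median of 5.35 CPM per kilobase, which was the level of Casp9 (5.35 ± 0.483), the caspase of the apoptosome. Interferon control genes were all detected and all lowest in mouse 5, and among them were Irf1 (109 ± 18.0) and Irf8 (33.8 ± 6.04). Over the 7 lists, 47 of 57 genes were detected, where 28.5% of the whole table was. Of the 50 that passed the expression filter, 35 were lowest in mouse 5, where 36.8% of all such genes were. In the edgeR spread test 0 of the 50 passed after adjustment and 4 had an unadjusted p under 0.05, beside 4.92% of all genes tested. The 4, named after their values were seen, were Ninj1, Naip2, Tnf and Il18bp (edgeR adjusted p = 0.955 each).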

How the data were processed

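Gene counts from 3 mouse lungs, 1 library per animal, were used. Per the labels' protocols, a Direct-zol kit served for extraction and a Nugen kit for mRNA libraries. STAR 2.5.2a, Trim Galore 0.6.2, bcl2fastq 2.17 and the build mm10 are named, with no roles, per the submitters' processing notes. Not given in the sources used here are the counter, the gene models and any strand setting. The values deposited by the authors are raw counts per Ensembl gene without normalization. GENCODE M21 gave symbols, 1-based coordinates and exon lengths for 53237 of 53342 identifiers, and RefSeq gave promoters.

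Spread was tested in edgeR 4.0.16 (R 4.3.3) with filterByExpr, TMM, an intercept alone and the older robust quasi-likelihood fit, as an upper-tail F test of each gene's dispersion against the trend, with Benjamini-Hochberg adjustment over 17636 genes at 0.05. The script was tested on simulated data. DESeq2 1.42.0 was an alternative. Python 3.11.15 with numpy 2.4.6, pandas 2.3.3 and scipy 1.17.1 computed levels. Detection means 1 CPM in every mouse, and differences between mice use log2(CPM + 0.5). The edgeR p-values set a gene's spread between mice against the trend, and the sign-flip p-values ask whether a mean log2 ratio lies off equality. Both rest on these 3 animals only. Named genes are the 10 members, the 3 highest per kilobase of each of 7 pathway lists and any that passed; some of these are not reported here. The members and lists were chosen with earlier results of these data known. Protein sequences were not used here. Alternatives were other scaling, filters, fits, lengths, limits and pseudocounts, and leaving out each mouse.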

Additional observations from a re-analysis of the deposited data

How the results depend on the processing

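The ratio of Casp1 to Casp4 was the only one of the 9 fixed pairs whose mean over mice changed sign. It turned from 0.68 to −0.29 with the longest transcript and to −1.37 with the mean coding transcript as length. The median level of the 10 genes moved from 12.9 CPM per kilobase to 16.3 and 24.8 with these lengths, and 8 and 6 of 9 neighbouring pairs then kept their order in every mouse. Without any filter on low counts, 1 of the 10 genes, Nlrp3, passed the spread test, among 629 genes of all 30751. That fit took the trend as exact, with infinite prior degrees of freedom against 3.88 in the main fit. Its p-values are therefore not comparable with those of the main fit, and the cause of the pass was not tested. In every other fit, including those without 1 mouse, 0 of the 10 passed, though 13 genes of the whole table did without mouse 4. With a limit of 2-fold in place of 1.5-fold, 0 genes of the list were past it between mice 4 and 5 and 0 between mice 5 and 6, where 2.54% and 0.663% of all genes were. With a limit of 0.32 on the log2 scale it was 6, 2 and 5 of 10 for mice 4 and 5, 4 and 6, and 5 and 6, against 29.9%, 20.2% and 23.2% of all genes. Other pseudocounts and scalings left the list's counts at 2, 0 and 1, but the share of all genes past 1.5-fold between mice 5 and 6 was 8.89% with a pseudocount of 0.1 and 3.67% with 1. All 10 genes were lowest in mouse 5 under both other scalings too, a check chosen after seeing the data. Groups of 3 are too small for an outlier test, and no paired analysis was possible because there is 1 group.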
